A study of Homo sapiens with 9 samples.

Results

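Keratins are the subunits of the intermediate filaments that epithelial cells build. A filament forms from pairs of 1 type I chain and 1 type II chain, and the members of a pair are usually made together in a given epithelium. KRT8 (type II) and KRT18 (type I) are the pair of simple, single-layered epithelia, where KRT7 (type II) and KRT19 (type I) often join them. KRT5 and KRT14 are the pair of basal cells in layered epithelia and in the myoepithelial layer of the breast, and KRT17 is a type I keratin of basal cells and skin appendages that is also induced in stressed epidermis. KRT81 and KRT86 are type II hair keratins, and KRT80 is a type II keratin of epithelial cells.

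These 10 keratin genes were taken by symbol from the gene-name field of the transcript entries, where each symbol matched 1 gene. They are 10 of the 58219 genes in the files and 10 of the 55 keratin genes found there by symbol, and their 74 annotated transcripts were summed per gene. Of the 10, 7 passed the filter on low counts that left 15233 genes for testing: KRT7, KRT8, KRT18, KRT19, KRT80, KRT81 and KRT86. KRT5, KRT14 and KRT17 did not pass and are given as reads.

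RNA came from MDA-MB-231, an established line of human breast carcinoma cells without hormone receptors, grown in DMEM with serum. Control cells carried a lentiviral scrambled RNA, shAPT1 cells carried a lentiviral short hairpin against APT1 and were selected with puromycin, and APT1wt cells carried a lentivirus that overexpresses APT1wt. APT1, the product of LYPLA1, is a thioesterase that takes palmitate off proteins. Each group had 3 libraries, and the study asked how APT1 bears on the unequal sharing of Notch and Wnt signalling at cell division. Both engineered lines were compared with the same scrambled control, so an effect of the overexpression vector itself cannot be told apart from that of APT1, and the 2 comparisons with control share their control libraries. The labels do not name separate cultures or clones, so the p-values cover the spread between the deposited samples, and that spread may be technical. In bulk RNA, fewer cells that make a keratin and less of its mRNA per cell cannot be told apart.

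Depth was 12381931 to 18667383 estimated reads per library. LYPLA1 stood at 80.5 to 92.7 TPM (a length-corrected share of all transcripts in a library) in control, 30.5 to 38.3 in shAPT1 and 169 to 171 in APT1wt. Of 6 mesenchymal markers known in this line, VIM (vimentin) stood at 1801 to 2373 TPM, CD44 at 660 to 923, CAV1 at 340.0 to 543, AXL at 309 to 439, ZEB1 at 33.1 to 48.6 and SPARC at 0.631 to 2.70, while ESR1 and PGR, the hormone receptors that the line lacks, stayed under 0.22 TPM in every library. shAPT1 replicate 1 stood apart from its group: its chi-square values per gene against replicates 2 and 3 were 11.4 and 16.8, beside 6.86 between those 2, so keratin values that it moved are given with and without it. Replicate 1 stood apart in the other groups too, at lower values. In control these were 7.90 and 6.66, beside 2.07 between replicates 2 and 3, and in APT1wt 4.94 and 6.07, beside 2.42.

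KRT81 and KRT86 are near copies of each other, which bears on how far their reads can be assigned. They lie on opposite strands of chromosome 12, KRT81 within the span of KRT86 but without shared exon bases. Over 1454 aligned coding bases the genes were 93.6% identical, with 93 differing bases and an identical run of 605 bases. Of the 31-base windows in the leading KRT86 transcript, 39.8% also occur in a KRT81 transcript, so KRT86 values below are uncertain by what Salmon assigned between these genes. KRT8 and KRT18 have many pseudogene copies, and 56.6% and 66.3% of the windows of their leading transcripts occur in another gene, yet the 50 KRT8 pseudogenes together received 48 to 83 reads per library and the 68 KRT18 pseudogenes 7 to 19.

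The keratins of simple epithelia made up most of the keratin mRNA in these cells. In control, KRT7 (ENSG00000135480.15) averaged 245 ± 20 TPM, KRT18 (ENSG00000111057.10) 229 ± 6.0, KRT8 (ENSG00000170421.12) 188 ± 8.2 and KRT19 (ENSG00000171345.13) 82.1 ± 2.3 (mean ± SD, n = 3 in each case). KRT80 (ENSG00000167767.13) followed at 56.4 ± 2.1 TPM, KRT81 (ENSG00000205426.10) at 33.3 ± 1.6 and KRT86 (ENSG00000170442.11) at 1.26 ± 0.51. The ranges of KRT7 and KRT18 overlapped in control. Every later step down to KRT86, and from KRT86 to KRT17, was larger than the spread between libraries. This order is by TPM over all transcripts of a gene. In control 67.3% of KRT7 TPM lay in transcripts annotated as protein-coding, beside 98.0% for KRT8 and 99.0% for KRT18. In shAPT1 the ranges of KRT18, KRT7 and KRT8 overlapped from one rank to the next, and in APT1wt only those of KRT7 and KRT18 did among the 7 tested genes. KRT7, KRT8, KRT18 and KRT19 together held 89.1% ± 0.79 of the summed TPM of the 10 genes in control, 91.9% ± 0.77 in shAPT1 and 91.8% ± 0.20 in APT1wt.

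**Figure D1:**
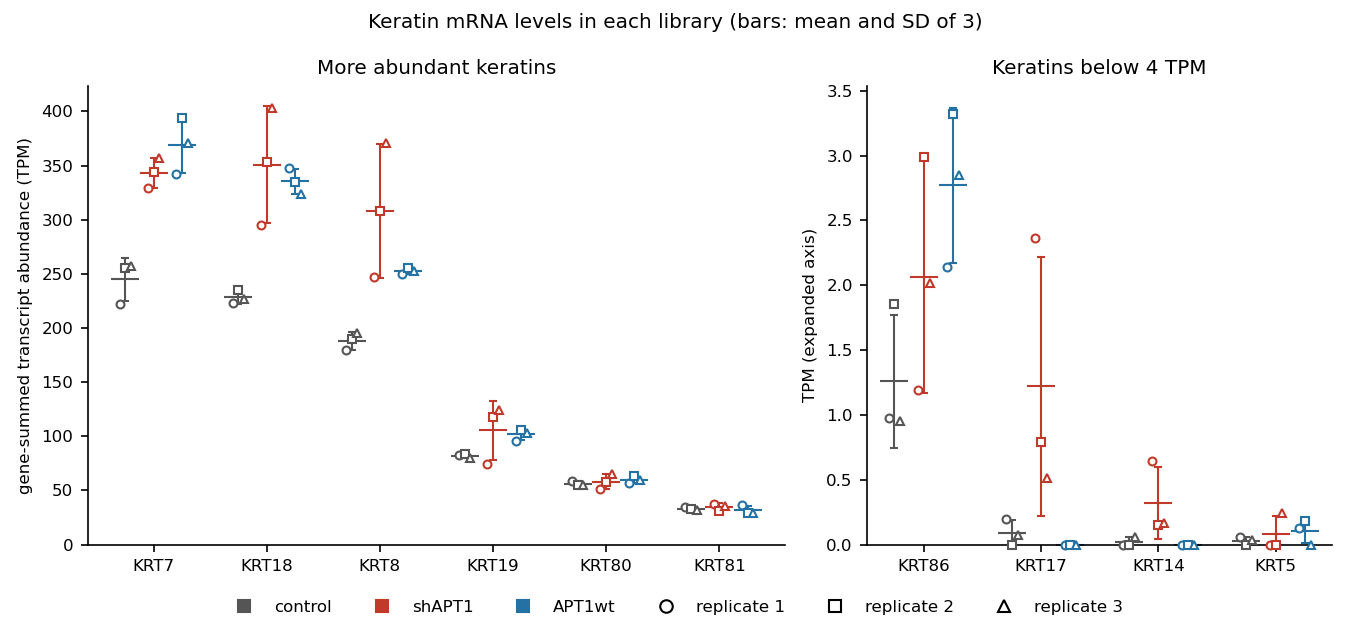
Gene-summed abundance in TPM of the 10 keratins in each of the 9 libraries (points, shaped by replicate), with the mean and SD of 3 as bars, on separate linear axes for genes above and below 4 TPM. KRT7, KRT18 and KRT8 lie higher in every shAPT1 and APT1wt library than in any control library, while KRT80 and KRT81 overlap in all groups.

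KRT8 and KRT18, the pair of simple epithelia, and KRT7 rose in both engineered lines. They were the 3 genes of the 7 past the threshold in shAPT1 against control, and with KRT86 the 4 of 7 in APT1wt against control. None fell in either comparison. Among all genes tested, 24.4% passed in shAPT1 against control and 12.8% passed with a higher level, and 23.4% and 11.8% did so in APT1wt against control. The median log2 fold change of the 7 keratins was 0.37 in shAPT1 and 0.43 in APT1wt, beside a median over all genes tested of -0.0039 and -0.0040. The group ranges in TPM did not overlap for 3 of the 7 in shAPT1 (31.1% of all genes tested) and for 5 of the 7 in APT1wt (35.0% of all genes tested).

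KRT8 (chromosome 12, 52897187 to 52949954, minus strand, GRCh38) was measured at 179, 190.0 and 195 TPM in control, at 247, 308 and 371 in shAPT1, and at 249.7, 256 and 253 in APT1wt. All libraries of both lines lay above all controls, and shAPT1 spread far more widely than the other groups. The log2 fold change was 0.64 ± 0.10 in shAPT1 (± SE, adjusted p = 5.0e-04, edgeR's quasi-likelihood test with Benjamini-Hochberg adjustment, 1.56-fold) and 0.43 ± 0.10 in APT1wt (adjusted p = 0.0083, 1.35-fold). Without shAPT1 replicate 1, the lowest of its group, the edgeR value in shAPT1 was 0.79 (adjusted p = 2.3e-07).

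KRT18 (chromosome 12, 52948871 to 52952901, plus strand) begins within the far end of the KRT8 span and is transcribed the other way. It stood at 223.5, 235 and 227 TPM in control, at 295, 353.5 and 403 in shAPT1, and at 347, 335 and 324 in APT1wt. The groups did not overlap with control in either line. The log2 fold changes were 0.54 ± 0.09 (edgeR adjusted p = 4.4e-04, 1.46-fold) and 0.56 ± 0.09 (edgeR adjusted p = 3.6e-04, 1.47-fold). Without shAPT1 replicate 1 the value in shAPT1 was 0.66.

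KRT7 (chromosome 12, 52232520 to 52252186, plus strand), a partner of KRT18 and KRT19 in ducts and glands, stood at 222, 255 and 257 TPM in control, at 329, 344 and 357 in shAPT1, and at 342.5, 394 and 370.5 in APT1wt. It had the smallest change of the 3 in shAPT1 and rose as far as KRT18 in APT1wt, with log2 fold changes of 0.37 ± 0.07 (edgeR adjusted p = 0.0012, 1.30-fold) and 0.56 ± 0.07 (edgeR adjusted p = 4.5e-05, 1.47-fold).

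KRT19 (chromosome 17, 41523617 to 41528308, minus strand), a type I keratin that lacks most of the tail domain of its relatives, did not pass in either line. It stood at 83.0, 83.8 and 79.6 TPM in control, at 74.5, 118 and 125 in shAPT1, and at 95.7, 106 and 103 in APT1wt. shAPT1 replicate 1 lay below every control while its other libraries lay above, and the APT1wt libraries all lay above control. The log2 fold changes were 0.30 ± 0.14 (edgeR adjusted p = 0.14, 95% interval -0.00097 to 0.60) and 0.28 ± 0.14 (edgeR adjusted p = 0.17, 95% interval -0.019 to 0.59). Without shAPT1 replicate 1 the value in shAPT1 was 0.51 (edgeR adjusted p = 2.1e-05), and with only the APT1wt and control libraries in the fit the value in APT1wt was 0.28 (edgeR adjusted p = 0.0021). When genes with low counts were kept in the fit, KRT19 passed in both lines (edgeR adjusted p = 0.0015 in shAPT1 and 0.0026 in APT1wt).

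KRT80 (chromosome 12, 52168996 to 52192000, minus strand) and KRT81 (chromosome 12, 52285913 to 52291534, minus strand) overlapped in all groups. KRT80 stood at 58.8, 55.5 and 55.0 TPM in control, at 51.6, 57.4 and 65.7 in shAPT1, and at 56.8, 63.8 and 59.4 in APT1wt. Its 95% intervals of the log2 fold change ran from -0.20 to 0.16 in shAPT1 and from -0.079 to 0.28 in APT1wt. KRT81 stood at 35.1, 32.5 and 32.2 TPM in control, at 37.6, 31.5 and 36.1 in shAPT1, and at 36.2, 29.2 and 29.6 in APT1wt. Its intervals ran from -0.20 to 0.20 and from -0.26 to 0.15, so changes of the size estimated for KRT8 and KRT18 lay outside the intervals of both genes in both lines.

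KRT86 (chromosome 12, 52249300 to 52309163, plus strand) was present at low levels, with 18 to 72.1 estimated reads per library. It stood at 0.977, 1.85 and 0.952 TPM in control, at 1.19, 2.99 and 2.02 in shAPT1, and at 2.14, 3.32 and 2.85 in APT1wt. The APT1wt libraries all lay above control, and shAPT1 overlapped with it. The log2 fold change was 1.04 ± 0.34 in APT1wt (edgeR adjusted p = 0.038) and 0.70 ± 0.35 in shAPT1 (edgeR adjusted p = 0.16). The call in APT1wt was lost when control replicate 1 or 3 or APT1wt replicate 2 or 3 was left out (edgeR adjusted p = 0.13, 0.15, 0.10 and 0.13), and without shAPT1 replicate 1 the value in shAPT1 passed at 0.96 (edgeR adjusted p = 0.035). KRT86 held 69 estimated reads over the control libraries and KRT81 1708, so a sum of the 2 genes is set by KRT81 and does not bear on KRT86. That sum gave log2 fold changes of 0.035 in shAPT1 (edgeR adjusted p = 0.80) and 0.0074 in APT1wt (edgeR adjusted p = 0.96).

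**Figure D2:**
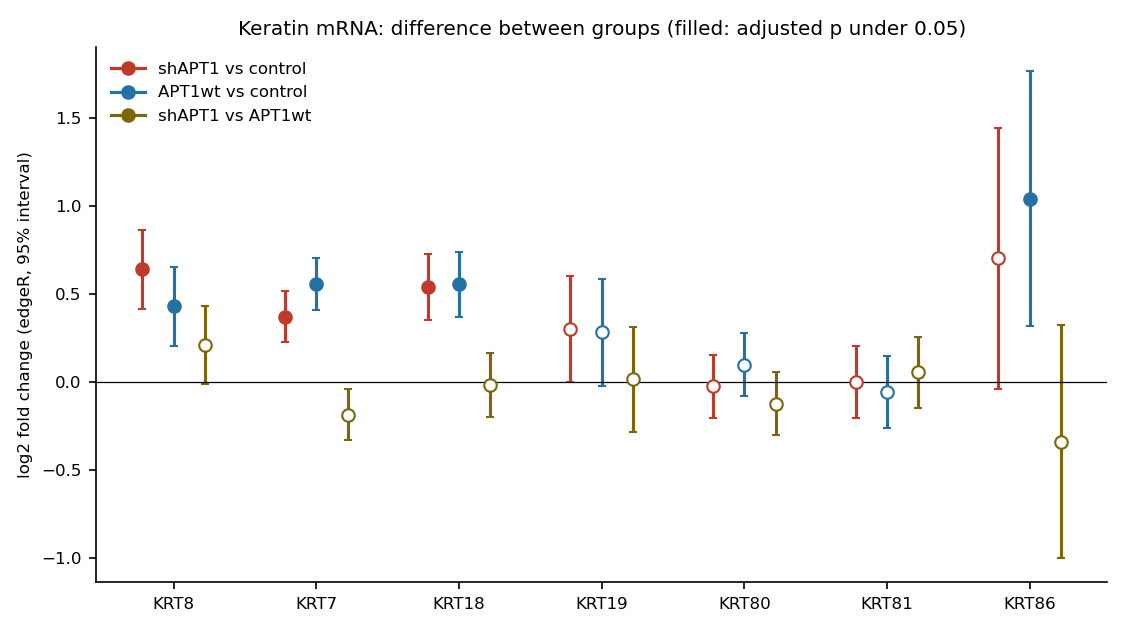
Log2 fold change from edgeR, with its 95% interval as the bar, for the 7 keratins tested in 3 comparisons of 3 libraries each (filled points passed an adjusted p of 0.05). KRT8, KRT7 and KRT18 are above 0 and filled in both comparisons with control, and no point of shAPT1 against APT1wt is filled.

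None of the 7 keratins passed when shAPT1 was compared with APT1wt, a comparison in which 25.1% of all genes tested passed and in which 1 keratin had an unadjusted p under 0.05. That gene was KRT7, at -0.18 ± 0.07 (edgeR adjusted p = 0.062). DESeq2 called 1 of the 7 in this comparison, KRT7 at -0.19 (adjusted p = 0.041). edgeR called KRT7 with the replicate number as a block, at -0.19 (adjusted p = 0.038), and without shAPT1 replicate 3, at -0.21 (adjusted p = 0.046). Without shAPT1 replicate 1 KRT7 was at -0.115 and did not pass (edgeR adjusted p = 0.15). Over the 18 alternatives KRT7 ranged from -0.22 to -0.083 in this comparison, and 15 of them left it uncalled as in the main fit. KRT8 differed by 0.21 ± 0.10 (edgeR adjusted p = 0.15, 95% interval -0.010 to 0.43), and with an offset for chromosomal neighbours, which removes what nearby genes share, it passed at 0.31 (edgeR adjusted p = 0.025). Without shAPT1 replicate 1 KRT8 was higher in shAPT1 than in APT1wt by 0.36 (edgeR adjusted p = 3.4e-04), and KRT19 by 0.22 (edgeR adjusted p = 0.010). KRT18 differed by -0.015 ± 0.09, with a 95% interval of -0.20 to 0.17. LYPLA1 differed between the same 2 lines by -1.89 ± 0.07 (edgeR adjusted p = 5.0e-10).

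KRT5, KRT14 and KRT17 had 0 or 1 read in every control and APT1wt library. KRT17 (ENSG00000128422.15 in the files, chromosome 17, 41619441 to 41624842, minus strand) had 1, 0 and 1 reads in the control libraries, 16, 8 and 8 in shAPT1, and 0 in each APT1wt library. Summed over the group and set against depth, shAPT1 was 14.0 times control, with a 95% counting interval of 3.57 to 120.5, and at least 11.0-fold higher than APT1wt, taking 3 reads over the group as the floor. In shAPT1 replicate 1 it reached 2.36 TPM. Without that library the ratio to control was 9.62, with an interval of 2.26 to 86.2, and it was 9.80 to 19.1 without any 1 of the other libraries of both groups. Without the filter on low counts, edgeR gave KRT17 a log2 fold change of 3.62 ± 0.82 in shAPT1 (adjusted p = 2.1e-04), and 3.06 ± 0.99 when shAPT1 replicate 1 was also left out (adjusted p = 0.032). These are 32 reads in all, and 42.3% of the 31-base windows of the leading KRT17 transcript occur in other genes, most often the pseudogene KRT17P3. The 8 KRT17 pseudogenes had 1 to 5 reads in each library.

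KRT14 (ENSG00000186847.5, chromosome 17, 41582279 to 41586921, minus strand), a basal partner of KRT5, had 0, 0 and 1 reads in control, 6, 1 and 1 in shAPT1, and 0 in each APT1wt library. The ratio of shAPT1 to control was 7.0, with a 95% counting interval of 0.938 to 310.5, so a difference was not detectable at this depth. Without shAPT1 replicate 1, which held 6 of the 8 reads, the ratio was 2.41, with an interval of 0.125 to 142. Without shAPT1 replicate 2 or 3 it was 9.70 and 9.55, with intervals from 1.25 and 1.23 upward. Without control replicate 1 or 2 it was 4.76 and 4.90. Without control replicate 3, which held the 1 control read, shAPT1 stood at 1.44 times an assumed floor of 3 reads over the group. That value carries no counting interval and is not a lower bound. KRT5 (ENSG00000186081.11, chromosome 12, 52514575 to 52520687, minus strand) had 1, 0 and 1 reads in control, 0, 0 and 1 in shAPT1, and 1, 1 and 0 in APT1wt. These counting intervals cover counting error only.

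Total keratin mRNA was higher in both lines, and the ratio of the chain types stayed within overlapping ranges. The summed TPM of the 10 keratins was 835 ± 28 in control, 1205 ± 161 in shAPT1 and 1154 ± 30 in APT1wt, with control at 803 to 854 and every engineered library at 1039 or above. Type II chains stood to type I chains at 1.69 ± 0.072, 1.65 ± 0.12 and 1.64 ± 0.076 in the same order, and the 3 ranges overlapped. Within the leading pair, KRT8 stood to KRT18 at 0.824 ± 0.032 in control, 0.875 ± 0.042 in shAPT1 and 0.754 ± 0.031 in APT1wt, with the APT1wt libraries at 0.719 to 0.780 and the other 6 at 0.802 or above. KRT19 stood to KRT18 at 0.359 ± 0.011, 0.298 ± 0.041 and 0.304 ± 0.025, and all control libraries, at 0.350 or above, lay over all others. No p is given for these sums and ratios, since the genes were chosen with results known.

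Vimentin, the intermediate filament protein of mesenchymal cells, remained the more abundant mRNA. VIM averaged 2267 ± 138 TPM in control cells, 2298 ± 82 in shAPT1 cells and 1894 ± 86 in APT1wt cells, with log2 fold changes of -0.05 ± 0.06 (edgeR adjusted p = 0.63) and -0.25 ± 0.06 (edgeR adjusted p = 0.0082). The 10 keratins together stood to VIM at 0.369 ± 0.011 in control, 0.523 ± 0.052 in shAPT1 and 0.609 ± 0.016 in APT1wt, and the 3 ranges did not overlap. With an offset for chromosomal neighbours VIM did not pass in APT1wt, at -0.05 (edgeR adjusted p = 0.61).

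Of the 6 mesenchymal markers, 1 rose, 2 fell and 3 did not pass in shAPT1, and 2 rose, 2 fell and 2 did not pass in APT1wt, beside 24.4% and 23.4% of all genes tested that passed. CAV1 (caveolin 1, of membrane caveolae) rose in both lines, by 0.37 ± 0.07 and 0.41 ± 0.07 on the log2 scale (edgeR adjusted p = 0.0021 and 0.0010). CD44, a hyaluronan receptor, fell in shAPT1 by 0.66 on the log2 scale (edgeR adjusted p = 2.7e-05) and did not pass in APT1wt at -0.16 (edgeR adjusted p = 0.16). AXL, a receptor tyrosine kinase, fell by 0.33 and 0.21 on the log2 scale (edgeR adjusted p = 0.0020 and 0.028). SPARC, a secreted matrix protein, passed in APT1wt at 1.03 ± 0.32 (edgeR adjusted p = 0.030). The calls of AXL and SPARC in APT1wt were lost without any 1 of the 6 libraries compared (edgeR adjusted p up to 0.090 and 0.11). They were also lost under 3 and 2 of the other settings (adjusted p up to 0.14 and 0.13). Their part in the keratin differences was not tested.

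KRT8 has 17 annotated transcripts that begin in 3 regions of the gene. The proximal region, led by ENST00000293308.11, carried 100.5 ± 20 TPM in control cells, 176 ± 31 in shAPT1 cells and 137 ± 15 in APT1wt cells. The middle start, used by the 1 transcript ENST00000552150.5, carried 52.4 ± 23, 90.6 ± 30 and 69.3 ± 15 TPM. The distal region, whose 8 transcripts begin within the KRT18 gene on the other strand, carried 35.4 ± 3.7, 41.8 ± 4.6 and 46.3 ± 2.5 TPM. The distal share of KRT8 was 17.0% to 22.0% in control, 11.4% to 15% in shAPT1 and 17.6% to 19.1% in APT1wt, so the shAPT1 libraries lay below the others. Libraries of 1 group divided KRT8 between the proximal and middle starts quite differently, with middle shares of 18.6% to 40.3% in control, and Salmon's own uncertainty was not used here.

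**Figure D3:**
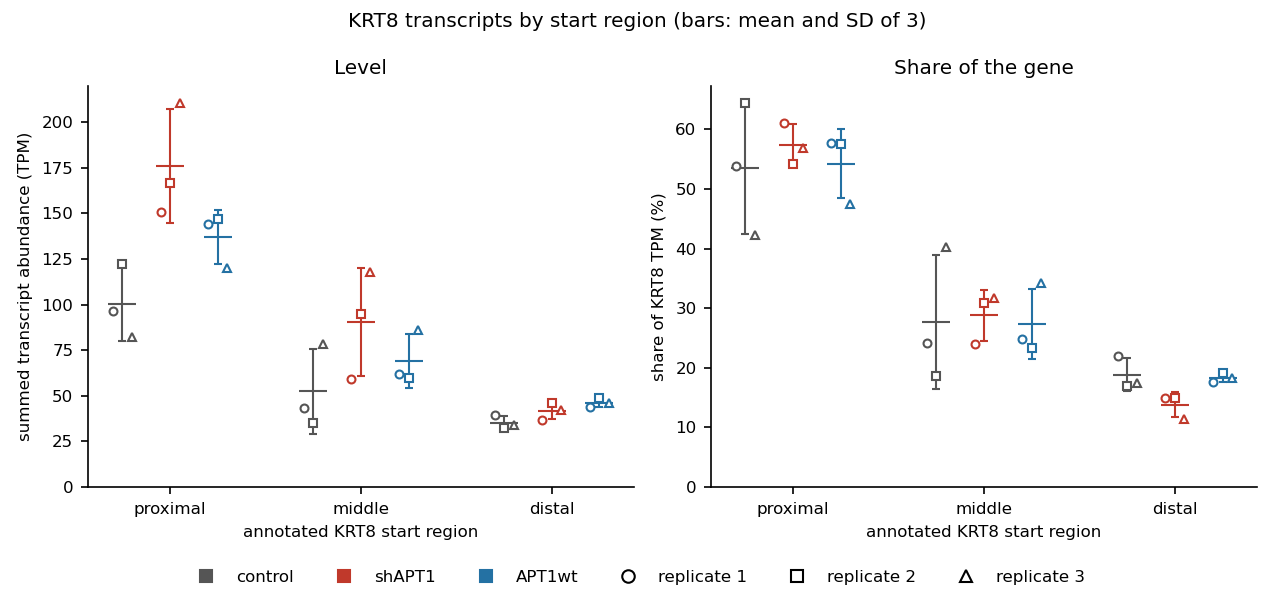
KRT8 abundance in TPM (left) and as a percentage of KRT8 TPM (right) by annotated start region, proximal being the one nearest the 3′ end, for 9 libraries (points, shaped by replicate) with the mean and SD of 3 as bars. Proximal levels are higher in shAPT1, at 151 to 211 TPM, than in control, at 82.5 to 122, and the distal share is lowest in shAPT1.

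The strand of the libraries is not given in the sources used here, and KRT8 and KRT18 share 525 exon bases on opposite strands. None of the proximal or middle KRT8 transcripts has a base in an exon of the 2 leading KRT18 transcripts. The proximal and middle KRT8 transcripts summed to 153 ± 11 TPM in control cells. They summed to 267 ± 60 in shAPT1 cells and 206 ± 0.40 in APT1wt cells. Control libraries lay at 139.8 to 161 and the others at 206 or above. The level that Salmon assigned to these transcripts was thus higher in both lines. Reads on single exons were not counted, and the part of the shared bases in the KRT8 values was not tested. KRT7 shares 282 of its 4093 exon bases with the antisense gene KRT7-AS, which stood at 2.99 to 4.32 TPM.

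The middle KRT8 start is the one for which RefSeq lists a promoter, and it is printed because that start carried 27.7% of KRT8 TPM in control. The window (GRCh38.p14, minus strand, 300 bases, 5′ to 3′) has the 50 bases from the start site on in capitals.
KRT8, chr12:52926420-52926719: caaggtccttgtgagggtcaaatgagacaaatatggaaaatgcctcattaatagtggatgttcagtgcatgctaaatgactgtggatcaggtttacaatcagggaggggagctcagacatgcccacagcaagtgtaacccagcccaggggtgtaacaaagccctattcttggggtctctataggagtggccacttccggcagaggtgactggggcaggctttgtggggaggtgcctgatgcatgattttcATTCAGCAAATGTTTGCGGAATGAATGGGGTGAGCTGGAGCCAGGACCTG
Of the 10 keratins, KRT5 and KRT8 had a RefSeq promoter window. Neither window holds TGANTCA (the AP-1 motif), GGGCGG (the Sp/KLF box) or TATAAA (the TATA box) on either strand. Of 35116 RefSeq windows of this length, 7.71%, 44.95% and 11.5% hold them. No match says only that these letters are not in this window.

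The other abundant keratins were mostly carried by 1 or 2 transcripts each. KRT18 was divided between ENST00000388837.6, at 122 ± 0.89 TPM in control and 198 in both lines, and ENST00000388835.3, at 104 ± 6.4 in control, 147 ± 30 in shAPT1 and 134 in APT1wt. KRT7 was led by ENST00000331817.5, at 157 ± 9.0 TPM in control cells, 210 ± 20 in shAPT1 cells and 225 ± 12 in APT1wt cells. Only 67.3% ± 0.31 of KRT7 TPM in control lay in transcripts annotated as protein-coding, with 66.9% ± 2.6 in shAPT1 and 69.0% ± 0.88 in APT1wt, while for KRT8, KRT18, KRT19, KRT80, KRT81 and KRT86 the mean was 96.8% or more in each group. KRT80 was carried mostly by ENST00000394815.2 and KRT81 by ENST00000327741.9.

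Among keratins outside the 10, KRT10 was abundant by TPM and did not pass, and KRT15 and KRT34 fell. Of 20 other type II keratins none passed the filter on low counts, and together they stayed at 0.338 TPM or below in every library. Of 25 other type I keratins 3 were tested, KRT10, KRT15 and KRT34. KRT15, a keratin of basal cells and hair-follicle stem cells, fell in both lines, with log2 fold changes of -1.04 ± 0.20 in shAPT1 (edgeR adjusted p = 0.0017) and -1.66 ± 0.21 in APT1wt (edgeR adjusted p = 6.1e-05). It stood at 3.07 to 6.98 TPM in control cells, 1.99 to 4.08 in shAPT1 cells and 1.26 to 3.12 in APT1wt cells, so the TPM ranges overlapped, and with an offset for transcript length the value in shAPT1 was -0.75 (edgeR adjusted p = 0.23), as in the deposited table at -0.70 (limma adjusted p = 0.27). KRT34, a hair keratin named here after its values were seen, fell in APT1wt by 1.90 on the log2 scale (edgeR adjusted p = 0.0051) from 0.994 ± 0.34 to 0.256 ± 0.034 TPM, on 3 to 6 reads per APT1wt library. KRT10 did not pass and stood at 78.2 ± 7.3, 78.4 ± 13.6 and 65.7 ± 5.5 TPM in control, shAPT1 and APT1wt. Most of this TPM, 92.7% in control, was assigned to a transcript of 583 bases. KRT10 held 1187 estimated reads over the control libraries, beside 1708 for KRT81 at 33.3 TPM.

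Genes whose products bind keratin filaments or tie them to desmosomes and hemidesmosomes mostly rose where they changed. Of 20 such genes 19 were tested. In shAPT1 6 rose, 1 fell and 12 did not pass, and in APT1wt 8 rose, 1 fell and 10 did not pass. The called genes made up 36.8% and 47.4% of the 19, beside 24.4% and 23.4% of all genes tested, of which 12.8% and 11.8% were higher. The median log2 fold change of the 19 was -0.02 in shAPT1 and 0.18 in APT1wt. FAM83H, which organises keratin filaments through casein kinase, rose from 0.805 ± 0.11 TPM to 2.51 to 2.99 in shAPT1 and 2.61 to 3.58 in APT1wt, with log2 fold changes of 1.71 ± 0.16 and 1.97 ± 0.16 (edgeR adjusted p = 3.9e-06 and 9.4e-07). DSP (desmoplakin), which joins keratins to the desmosome, rose from 6.63 to 7.67 TPM in control to 16.3 to 19.3 in shAPT1 and 17.0 to 19.4 in APT1wt, by 1.27 ± 0.07 and 1.38 ± 0.07 (edgeR adjusted p = 3.5e-08 and 2.4e-08). Both engineered lines were thus above control for DSP in every library, and they did not differ from each other past the threshold (edgeR adjusted p = 0.27).

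Other linker genes differed between the 2 lines. PKP2 (plakophilin 2, a desmosome plaque protein) rose in shAPT1 by 0.63 ± 0.08 (edgeR adjusted p = 7.0e-05) and was higher there than in APT1wt by 0.53 ± 0.08 (edgeR adjusted p = 3.0e-04). ITGB4 (integrin beta 4, the hemidesmosome receptor chain that binds plectin) rose in APT1wt by 1.17 ± 0.17 (edgeR adjusted p = 2.2e-04), from 18.9 ± 0.99 to 41.4 ± 6.1 TPM, and was lower in shAPT1 than in APT1wt by -0.71 ± 0.17 (edgeR adjusted p = 0.0072). PLEC (plectin, a cytolinker) was lower in shAPT1 than in APT1wt by -0.68 ± 0.11 (edgeR adjusted p = 4.2e-04). PKP3 (plakophilin 3) also was, by -0.61 ± 0.13 (edgeR adjusted p = 0.0045), but not with the length offset (edgeR adjusted p = 0.17) or in the deposited table (limma adjusted p = 0.13). PPL (periplakin) passed in APT1wt at 1.11 ± 0.32 (edgeR adjusted p = 0.023), but the call was lost with voom (adjusted p = 0.059) and without any 1 of the control libraries or APT1wt replicate 2 or 3 (edgeR adjusted p up to 0.091). COL17A1, a hemidesmosome collagen, fell in shAPT1 by 0.45 on the log2 scale (edgeR adjusted p = 0.046) and in APT1wt by 0.76 (edgeR adjusted p = 0.0030). In shAPT1 that call was lost under 6 of the other settings (adjusted p up to 0.70) and without control replicate 2 or 3 or shAPT1 replicate 2 or 3 (edgeR adjusted p up to 0.21).

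**Figure D4:**
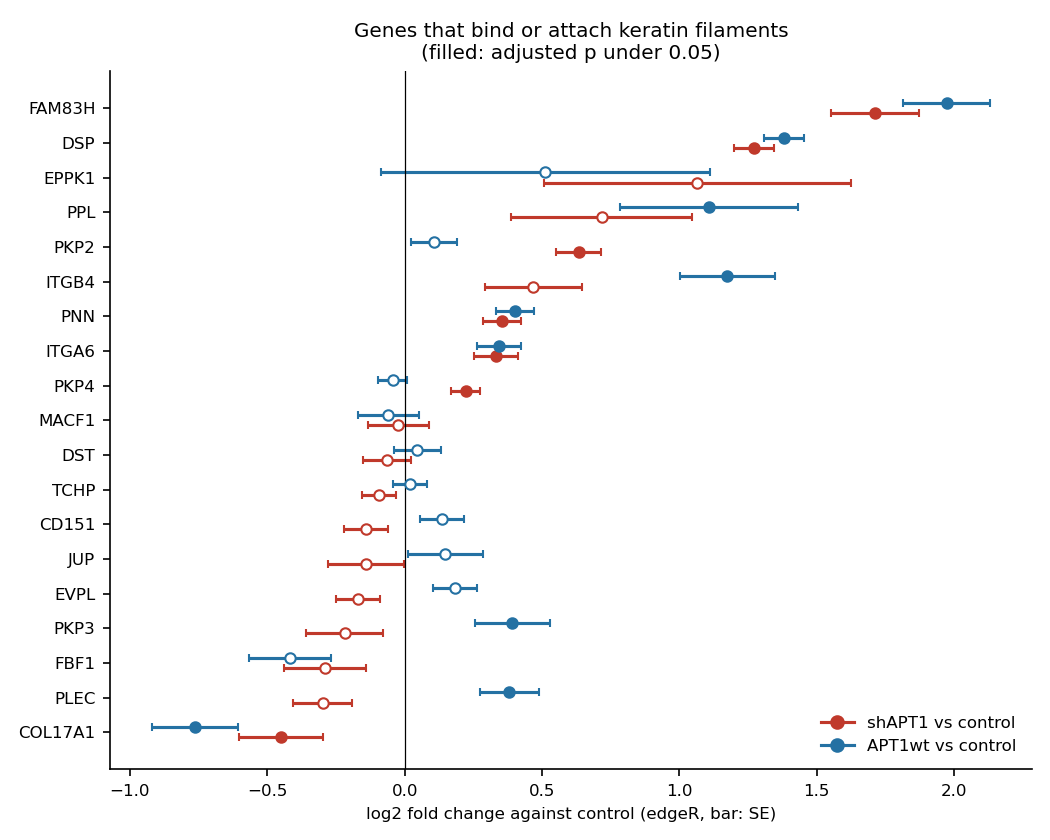
Log2 fold change against control (edgeR, bars SE, 3 libraries a group) of the 19 keratin linker and attachment genes tested, in shAPT1 and in APT1wt, with filled points past an adjusted p of 0.05. FAM83H and DSP lie farthest right in both lines, COL17A1 farthest left, and PKP2, ITGB4, PLEC and PKP3 lie apart between the lines.

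Regulators of epithelial gene expression went both ways. Of 21 listed 10 were tested, and 3 rose, 2 fell and 5 did not pass in each comparison with control, beside 24.4% and 23.4% of all genes tested that passed, with median log2 fold changes of 0.18 in shAPT1 and 0.00096 in APT1wt. ESRP2, a splicing regulator of epithelial cells, rose by 0.61 ± 0.15 in shAPT1 (edgeR adjusted p = 0.0092) and 1.14 ± 0.15 in APT1wt (edgeR adjusted p = 6.2e-05), from 2.11 ± 0.22 to 3.76 ± 0.42 and 4.80 ± 0.88 TPM. EHF, an epithelial ETS factor, fell by 0.76 and 1.04 on the log2 scale (edgeR adjusted p = 5.4e-04 and 4.1e-05), from 74.0 ± 4.2 to 41.2 ± 8.2 and 34.8 ± 0.30 TPM. TFAP2C (AP-2 gamma) rose in APT1wt by 0.95 ± 0.10 (edgeR adjusted p = 1.4e-05), SOX9 rose in shAPT1 by 0.40 ± 0.09 (edgeR adjusted p = 0.0050), and CEBPB fell in shAPT1 by 0.51 (edgeR adjusted p = 0.0020). KLF5 rose in APT1wt by 0.55 ± 0.09 (edgeR adjusted p = 3.1e-04). With the offset for chromosomal neighbours the KLF5 value was -0.01 (edgeR adjusted p = 0.92). KLF4 was higher in shAPT1 than in APT1wt by 0.48 ± 0.10 (edgeR adjusted p = 0.0027).

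Of 16 intermediate filament genes other than keratins 9 were tested. In shAPT1 1 rose, 1 fell and 7 did not pass, and in APT1wt 2 rose, 1 fell and 6 did not pass, with medians of 0.05 and -0.14. These are 22.2% and 33.3% of the 9, beside the 24.4% and 23.4% of all genes tested. NES (nestin) rose in shAPT1 by 0.65 ± 0.21 (edgeR adjusted p = 0.038), a call lost under 4 of the other settings and without control replicate 1 or 3 or shAPT1 replicate 2 or 3 (edgeR adjusted p up to 0.17). LMNB2 (lamin B2, of the nuclear envelope) fell in shAPT1 by 0.31 on the log2 scale (edgeR adjusted p = 0.010) and rose in APT1wt by 0.25 ± 0.08 (edgeR adjusted p = 0.036), where it no longer passed under 3 of the other settings or without any 1 of the control libraries or APT1wt replicate 2 or 3 (edgeR adjusted p up to 0.16). With the offset for chromosomal neighbours LMNB2 in shAPT1 was at -0.017 (edgeR adjusted p = 0.88). LMNB1 (lamin B1) rose in APT1wt by 0.36 ± 0.07 (edgeR adjusted p = 0.0014).

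Markers of other cell types were in part at or near 0 and in part present and changed. PTPRC, which marks leukocytes, stayed at 0.265 TPM or below, DCN, which marks fibroblasts, at 0.270 or below, and PECAM1, which marks endothelium, at 1.15 or below. The 7 fibroblast markers summed to 17.9 to 20.7 TPM in control cells, 13.3 to 22.7 in shAPT1 cells and 20.2 to 24.7 in APT1wt cells. Of these 7 genes 4 were tested, and in shAPT1 COL1A2 rose by 1.69 ± 0.35 (edgeR adjusted p = 0.0026), PDGFRB by 1.39 ± 0.21 (edgeR adjusted p = 2.7e-04) and COL1A1 by 0.51 ± 0.13 (edgeR adjusted p = 0.0094), while FBLN1 fell by 1.14 on the log2 scale (edgeR adjusted p = 9.9e-05). In APT1wt PDGFRB and COL1A1 rose, by 1.14 ± 0.21 and 0.54 ± 0.13 (edgeR adjusted p = 0.0015 and 0.0076), and COL1A2 and FBLN1 did not pass. Among all genes tested, 24.4% passed in shAPT1 against control and 23.4% in APT1wt against control. PDGFRB and COL1A1 did not pass in either line under 2 of the other settings (adjusted p up to 0.30 and 0.20).

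The summed level of 7 endothelial markers, mostly ESAM, was higher in both engineered lines, at 41.3 to 50.7 TPM in control cells, 59.4 to 77.5 in shAPT1 cells and 102 to 106 in APT1wt cells. Of 4 tested, ESAM rose by 0.44 ± 0.08 and 1.23 ± 0.08 (edgeR adjusted p = 0.0017 and 2.2e-07), TIE1 rose in shAPT1 by 2.08 ± 0.26 (edgeR adjusted p = 6.0e-05), and KDR passed in APT1wt at -0.55 ± 0.18 (edgeR adjusted p = 0.036), a call lost under 3 of the other settings and without control replicate 2 or APT1wt replicate 2 or 3 (edgeR adjusted p up to 0.18). The 8 leukocyte markers summed to 105 to 132, 68.0 to 88.8 and 70.5 to 99.3 TPM. Of 2 tested, CD68, a lysosomal protein that stood at 117 TPM in control, fell by 0.62 and 0.51 on the log2 scale (edgeR adjusted p = 0.0015 and 0.0059), and CD14 did not pass. The 9 luminal markers summed to 42.6 to 45.8, 48.7 to 59.2 and 45.4 to 58.6 TPM, and of 4 tested only XBP1 passed, at 0.33 ± 0.10 and 0.41 ± 0.10 (edgeR adjusted p = 0.025 and 0.0083), but not with the transcript length offset or in the deposited table. Leaving out 1 library at a time, XBP1 was also lost 3 times in shAPT1 and 1 time in APT1wt (edgeR adjusted p up to 0.12 and 0.052). The 6 myoepithelial markers summed to 13.6 to 24.3, 20.1 to 28.3 and 22.8 to 27.6 TPM, and of 5 tested 3 rose in shAPT1, OXTR, CNN1 and MYLK, and 2 in APT1wt, CNN1 and MYLK. Beside these 4 lists, 24.4% and 23.4% of all genes tested passed in shAPT1 and APT1wt, 12.8% and 11.8% with a higher level. The calls of CNN1 and MYLK were lost with the length offset and in the deposited table in both lines. Leaving out 1 library at a time, CNN1 was lost 4 times in shAPT1 and 5 in APT1wt (edgeR adjusted p up to 0.099 and 0.15). MYLK was lost 2 and 3 times (edgeR adjusted p up to 0.092 and 0.059). The TPM ranges of CNN1 overlapped with control in both lines. The part of these genes in the keratin differences was not tested.

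For each keratin tested, the 2 non-keratin genes with the most similar course over the 9 libraries were found by Pearson's r of log2 CPM, as a description of libraries that share groups and depth. They were TP53I11 (r = 0.994) and PNMA2 (0.983) for KRT7, ACTN1 (0.976) and STXBP2 (0.976) for KRT8, and PRKCA (0.987) and ZNF608 (0.979) for KRT18. For KRT19 they were ACSF2 (0.985) and CREB3L1 (0.978). For KRT80 they were PAQR8 (0.979) and RNF123 (0.967), for KRT81 NFX1 (0.954) and UBA6-AS1 (0.949), and for KRT86 ICMT (0.952) and GALNT12 (0.948). No gene was shared between these pairs.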

How the data were processed

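Total RNA of 9 MDA-MB-231 libraries, 3 per group, was sequenced. The authors used FastQC, Salmon and DESeq2 with build GRCh38.p10, per the submitters' processing notes. Versions and library strand are not given in the sources used here. The deposited Salmon files hold, per the file headers, estimated counts and TPM for each transcript and its effective length. The authors also deposited a gene table, a signal scaled between libraries in a way not stated, which served as an alternative. Estimated counts were summed per gene and rounded, and TPM summed per gene gave levels, so depth sets the precision of low genes.

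All 9 libraries entered 1 quasi-likelihood fit (edgeR 4.0.16 in R 4.3.3, its default filter on low counts, TMM scaling), with Benjamini-Hochberg adjustment over 15233 genes at 0.05. Intervals are 95% and counting intervals are exact. The script was tested on simulated counts. GENCODE 29 (GRCh38) gave positions and RefSeq the promoter windows. Protein sequences were not analysed here, and some coding sequence is not reported here.

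The members and lists were chosen with earlier results of these data known. All 10 keratins, VIM and LYPLA1 were named. Each list, in each comparison, could give up to 4 genes past 0.05 with at least 1 TPM, by size of change, and some eligible genes are left out.

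Alternatives were RLE scaling, library totals, DESeq2 1.42.0, voom from limma 3.58.1, no filter, at least 20 counts in 3 libraries, a transcript length offset, the deposited table as log2(value + 1) in limma, only the groups compared, a replicate block, an offset from 50 neighbouring genes on each side, near-identical copies summed, and leaving out each library. For KRT14 and KRT17 a fit with no filter and without shAPT1 replicate 1 was added after seeing the data. Tables and figures used Python 3.11.15, pandas 2.3.3 and matplotlib 3.10.9.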

Additional observations from a re-analysis of the deposited data

How the results depend on the processing

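The calls of KRT7, KRT8 and KRT18 against control and the absence of calls for KRT80 and KRT81 held under all 18 alternatives run for each. Over these, KRT8 ranged from 0.51 to 0.79 in shAPT1 and from 0.39 to 0.45 in APT1wt, KRT18 from 0.45 to 0.66 and from 0.52 to 0.57, and KRT7 from 0.34 to 0.44 and from 0.52 to 0.61. The number of keratins past 0.05 in shAPT1 against control was 5 with no filter on low counts, and 3 to 5 when 1 library was left out. In shAPT1 against APT1wt it was 1 with DESeq2 (KRT7), 2 with no filter (KRT8 and KRT17) and 1 with the offset for chromosomal neighbours (KRT8), and 0 to 2 when 1 library was left out. In APT1wt against control KRT86 was lost with the transcript length offset (adjusted p = 0.051) and the neighbour offset (0.063). Over all genes, 3719 calls in shAPT1 against control became 2273 with the length offset and 2326 with the deposited table. The 3568 calls in APT1wt against control became 2193 and 2236, and the 3829 in the direct comparison of the lines 2314 and 2357. In APT1wt against control the neighbour offset gave 2340, and leaving out 1 library 2298 to 2983. The neighbour offset turned KLF5 in APT1wt to -0.015. In shAPT1 against APT1wt, library totals alone moved the share of higher calls from 50.7% to 66.5%, with no keratin called. The cause of these shifts was not tested.

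Same-numbered libraries of different groups deviated together with correlations of -0.051 to 0.10 (median 0.019). Other-numbered libraries gave -0.11 to 0.071 (median -0.0047). The highest values, 0.10 and 0.093, both lay between replicate 1 libraries. The remaining replicate 1 pair, control with shAPT1, gave -0.051, the lowest of the same-numbered pairs. These small correlations do not settle whether the replicate numbers mark pairs. With the replicate block 1 keratin passed in shAPT1 against APT1wt (KRT7 at -0.19, adjusted p = 0.038), and in both comparisons with control the same 3 and 4 keratins passed. Depth limits KRT5, KRT14, KRT17 and KRT86, and with 3 libraries a group an exact permutation test cannot go below 0.1.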

Other observations

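Genes of the cornified envelope, which stratified epithelia build on their keratin network, were mostly silent in these cells: of 15 listed, 10 to 13 were at 0 in every library of a group and 2 were tested. FLG (filaggrin, which bundles keratin filaments in the skin) was higher in both lines, with log2 fold changes of 0.85 ± 0.13 in shAPT1 (edgeR adjusted p = 4.2e-04) and 0.63 ± 0.14 in APT1wt (edgeR adjusted p = 0.0041), at 2.40 to 2.95 TPM in control cells, 4.49 to 5.50 in shAPT1 cells and 3.33 to 5.03 in APT1wt cells. TGM1 (the transglutaminase that crosslinks the envelope) was higher in APT1wt by 1.06 ± 0.27 (edgeR adjusted p = 0.011) and not past the threshold in shAPT1 at 0.64 ± 0.28 (edgeR adjusted p = 0.11). With the transcript length offset TGM1 in APT1wt was 0.90 (adjusted p = 0.14), on the deposited signal it was 0.87 (limma adjusted p = 0.12), and without control replicate 2 it was 0.88 (edgeR adjusted p = 0.054). The difference of TGM1 between shAPT1 and APT1wt did not pass (edgeR adjusted p = 0.24).

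Of KRT10 TPM in control, 92.7% was assigned to ENST00000635956.1, a transcript of 583 bases, and 7.31% to ENST00000269576.5, of 2124 bases. A short annotated transcript of KRT7, ENST00000638501.1 of 398 bases, averaged 8.38 ± 6.1 TPM in control cells, 19.6 ± 2.5 in shAPT1 cells and 29.3 ± 9.0 in APT1wt cells. Its APT1wt range, 19.1 to 36.4 TPM, overlapped with that of shAPT1, 16.7 to 21.6.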
